A study of Mus musculus with 6 samples.

Results

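The genes described here encode proteins that move small molecules and ions across membranes. They are the solute carriers, the ABC transporters and the genes named as ATPase subunits, compared between wild-type and UXT knockout mouse Sertoli cells. They were chosen by name alone, as symbols that begin with Slc and a digit, Abc with a letter a to g and a digit, or Atp and a digit, with Slc7a11 left out. The rule found 86 of the 3257 genes analysed, of which 66 were Slc, 9 Abc and 11 Atp genes. The data were 3 RNA-seq libraries per genotype from primary Sertoli cells, the somatic nurse cells of the seminiferous tubule, on a C57BL/6 background, enriched by plating. Wild-type cells were given the empty plasmid, and the cells of UXT KO animals received a virus with Cre recombinase. Cre was present in 1 group only, so genotype and Cre virus cannot be told apart. Nothing in the labels ties a library to an animal or culture of its own, so p-values measure the spread between libraries, which may be technical. The Uxt gene itself was not analysed here.

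The Sertoli cell feeds the germ cells behind the blood-testis barrier, to which capillaries have no direct access. It takes up glucose through facilitative carriers, exports lactate through monocarboxylate transporters, and handles amino acids, metals and vitamins for its neighbours. The sodium-potassium pump sets the gradient that sodium-coupled carriers use, and ABC transporters such as P-glycoprotein return drugs to the blood side.

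The authors' deposited table holds only genes that passed the authors' own threshold on these same libraries, a fold of at least 1.5 with an adjusted p under 0.05. Membership in the table is therefore no result, and a transporter outside it cannot be called unchanged. RefSeq lists 509 protein-coding mouse genes with such names. By gene ID the table held 86 of these (16.9%), beside 3144 of all 21900 protein-coding genes (14.4%). This count by ID is not the same set as the 86 genes described. It includes an Slc66 gene that the name rule did not find, and it leaves out Atp5sl, which has another symbol in RefSeq. Fold sizes below are those of the authors' deposited table. The values per library are on a log2 scale whose making is not stated, and the difference between group means was a median of 0.583 of the deposited log2 fold change over the 86 genes, and 0.58 over the whole table. This ratio was 0.243 in the lowest and 0.654 in the highest of 4 equal groups of genes by mean value, so differences of low genes are small on this scale. Levels of different genes are not compared here unless given per length.

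Facts of the whole series bear on these values. No counts were at hand, so depth is unknown. Over the 86 genes the replicates had a median SD of 0.0864 in wild type and 0.108 in the knockout, on the log2 scale (n = 3 each). For 30 of the 86 another gene overlaps on the opposite strand, among them Atp1b1 (with Nme7) and Abcb1b (with Gm5106), and whether counting used strand is not stated. Of the Sertoli markers listed, 18 of 26 were in the table and all 18 were called lower, and their summed linear level was 2.386e+05 to 3.046e+05 in wild-type and 1.206e+05 to 1.447e+05 in knockout libraries. Macrophage markers (23 of 25 in the table, all called lower) summed to 3.327e+04 to 4.259e+04 in wild-type and 1.223e+04 to 1.440e+04 in knockout libraries. Endothelial markers (21 of 25, all lower) summed to 1.797e+04 to 1.975e+04 and 1.043e+04 to 1.193e+04. Myoid markers (13 of 15, 12 lower and 1 higher) summed to 5.482e+05 to 6.811e+05 and 3.963e+05 to 4.573e+05, and fibroblast markers (6 of 14, all lower) to 1.449e+06 to 1.612e+06 and 6.906e+05 to 1.154e+06. The Leydig markers in the table, 4 of 13, were all called higher, with sums of 4.258e+04 to 4.774e+04 and 6.391e+04 to 8.189e+04. The table held 3 of 20 germ cell markers and 1 of 10 red blood cell markers, all called lower. Sums were 269.1 to 289.7 and 98.5 to 111.2 for germ cells, and 336.6 to 419.8 and 95.3 to 115.2 for red blood cells. The germ cell sum rests mostly on Kit, and Dmrt1 is counted on both the germ cell and the Sertoli list. These sums rest on the few most abundant genes of each list, and a list's median gives every gene equal weight. The sums were made from the values per library, on which most differences are smaller than the deposited log2 fold changes. They can therefore understate the deposited folds. Of all genes analysed, 67.5% were called lower and 32.1% higher. Per the authors' deposited table the median log2 fold change was -3.57 for endothelial, -2.55 for macrophage, -1.82 for Sertoli, -1.13 for fibroblast, -1.12 for myoid and 1.30 for Leydig markers. No marker in the table was at 0 in any library. The lowest wild-type mean of all genes analysed was 2.32, so on this scale that does not show detection. In bulk RNA, fewer cells of a type and less RNA per cell cannot be told apart, and the part of these cell types in the transporter differences was not tested.

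Of the 86 genes, 62 fell and 23 rose in knockout cells by limma (adjusted p under 0.05 and a deposited fold of at least 1.5). The share called among all genes was 99.6%, with 32.1% higher and 67.5% lower, so the call itself carries nothing particular to transporters. The limma adjusted p-values were computed over these selected genes on the same libraries. Small values were therefore favoured in advance, and they are no independent support for a change. The median of the deposited log2 fold change was -0.92 over the 86 genes, in the authors' deposited table, and -0.88 over all genes. The share of called genes that were lower was 72.9%, beside 67.8% over all genes. The split moved with the scaling. Since the table holds only genes selected as changed, most of them lower, both scalings used here bring the balance nearer to even by their construction. Quantile normalization, which raised the median difference of all genes by 0.26, left 28 transporter genes lower and 24 higher, a share of 53.8% lower, beside 67.3% of all genes called, 35.1% lower and 32.2% higher. Centring each library on its median raised every difference by the same 0.30, so that any smaller fall changes sign, and left 29 lower and 24 higher, beside 31.4% and 34.3% of all genes. A sign turned or a call lost under these scalings gives the size of a gene's fall against the shift and is no test of that gene. In 84 of the 86 genes the groups did not overlap (97.7%, beside 97.5% of all genes). A deposited fold of at least 2 was reached by 54 genes (62.8%, beside 53.7% of all genes), 42 of them lower.

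**Figure D1:**
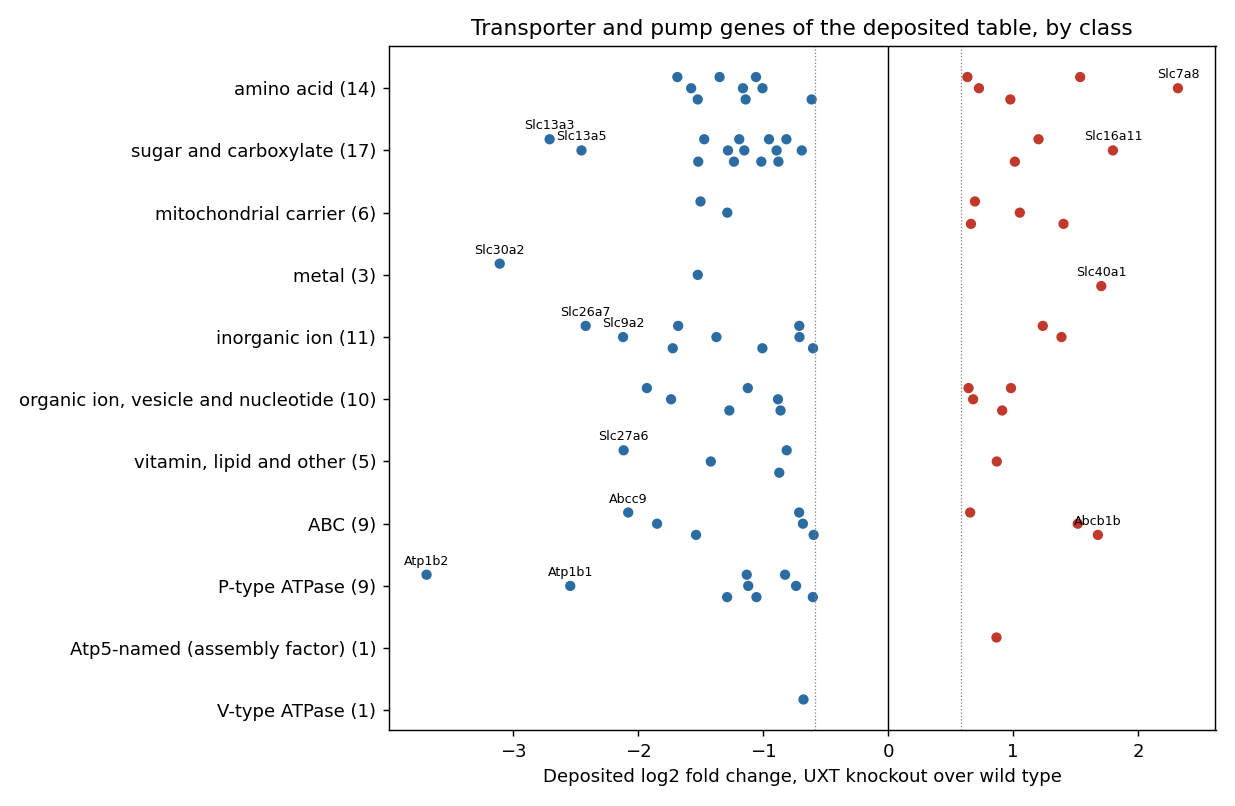
Deposited log2 fold change of each of the 86 genes (horizontal axis) by class (rows, with the number of genes), 1 point per gene, red for higher and blue for lower in the knockout; dotted lines mark a fold of 1.5. The points reach from -3.69 for Atp1b2 to 2.32 for Slc7a8, and no gene lies between the dotted lines, since the table was selected at that fold.

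The sodium-potassium pump showed the largest fall. Atp1b2 and Atp1b1 encode beta subunits, which carry the pump to the plasma membrane. Atp1b2 (gene ID 11932, chromosome 11, 69599728 to 69605978 in GRCm38) stood at 10.30, 10.66 and 10.50 in the wild-type and at 8.17, 8.39 and 8.33 in the knockout libraries. Every knockout value was far below every wild-type value. The fall was 12.9-fold per the authors' deposited table. By limma it was -2.19 ± 0.11 (SE, adjusted p = 1.94e-06). Atp1b1 (gene ID 11931, chromosome 1, 164437099 to 164458355) stood at 11.15, 11.38 and 11.31 in the wild-type and at 8.97, 9.41 and 9.73 in the knockout libraries. It fell 5.82-fold per the authors' deposited table (limma difference -1.91 ± 0.17 SE, adjusted p = 2.09e-05), with a wider spread among the knockout libraries (SD 0.38, n = 3) than Atp1b2 (SD 0.11). No alpha subunit of this pump was in the table. Fxyd1 and Fxyd5 encode small regulators of the same pump, and they fell 3.99-fold and 1.84-fold per the authors' deposited table. All 4 genes were still called lower after quantile normalization and after median centring.

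The bases just before the start of Atp1b1 are shown as those of the subunit with the higher wild-type log2 level per kb (9.91, beside 8.98 for Atp1b2). The RefSeq promoter table (GRCm38.p6) gave windows for 60 of the 86 genes, and none for Atp1b2. Each stretch printed here is the 250 bases before the most upstream start, without bases that an exon of the gene in GENCODE covers. The stretch of Atp1b1, on the minus strand at chr1:164458356-164458605, holds 2 GC boxes (GGGCGG) and 1 CCAAT box, in capitals, read on either strand:
Atp1b1: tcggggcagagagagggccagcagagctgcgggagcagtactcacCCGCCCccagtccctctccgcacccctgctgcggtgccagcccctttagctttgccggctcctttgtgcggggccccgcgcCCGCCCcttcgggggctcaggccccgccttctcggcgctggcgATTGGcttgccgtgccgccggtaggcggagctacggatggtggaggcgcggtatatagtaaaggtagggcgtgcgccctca

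The other pumps of the P-type class in the table were lower too. With the beta subunits they made 9 genes, all called lower (beside 67.5% of all genes), although 5 were still lower after quantile normalization (beside 35.1%) and 4 after median centring (beside 31.4%), and the difference of 3 turned positive under the former (Atp2a3, Atp7b and Atp8b3) and of 1 under the latter (Atp8b3). Atp2b4, a plasma membrane calcium pump, went from 12.51, 12.69 and 12.39 to 11.52, 11.78 and 11.75 and fell 2.44-fold per the authors' deposited table (limma adjusted p = 1.13e-04). Atp2a3, a calcium pump of the endoplasmic reticulum, and Atp7b, a copper pump, fell 2.17-fold and 2.07-fold per the authors' deposited table. The flippase genes Atp8b1, Atp8b2, Atp8b3 and Atp11a, which turn phospholipids to the inner leaflet, fell between 1.52-fold and 2.19-fold per the authors' deposited table. Of 26 annotated Atp6 genes of the vacuolar proton pump, Atp6v1b2 alone was in the table, 1.60-fold lower. It was not called after quantile normalization (limma difference -0.20). None of the 17 annotated Atp5 genes of the mitochondrial ATP synthase was in it. The gene listed as Atp5sl carries the symbol Dmac2 in RefSeq and is known as an assembly factor of the respiratory chain, not a pump. It went from 9.53, 9.51 and 9.55 to 10.06, 10.02 and 10.06 and rose 1.82-fold per the authors' deposited table (limma adjusted p = 2.55e-04), and it was the one Atp gene that rose.

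**Figure D2:**
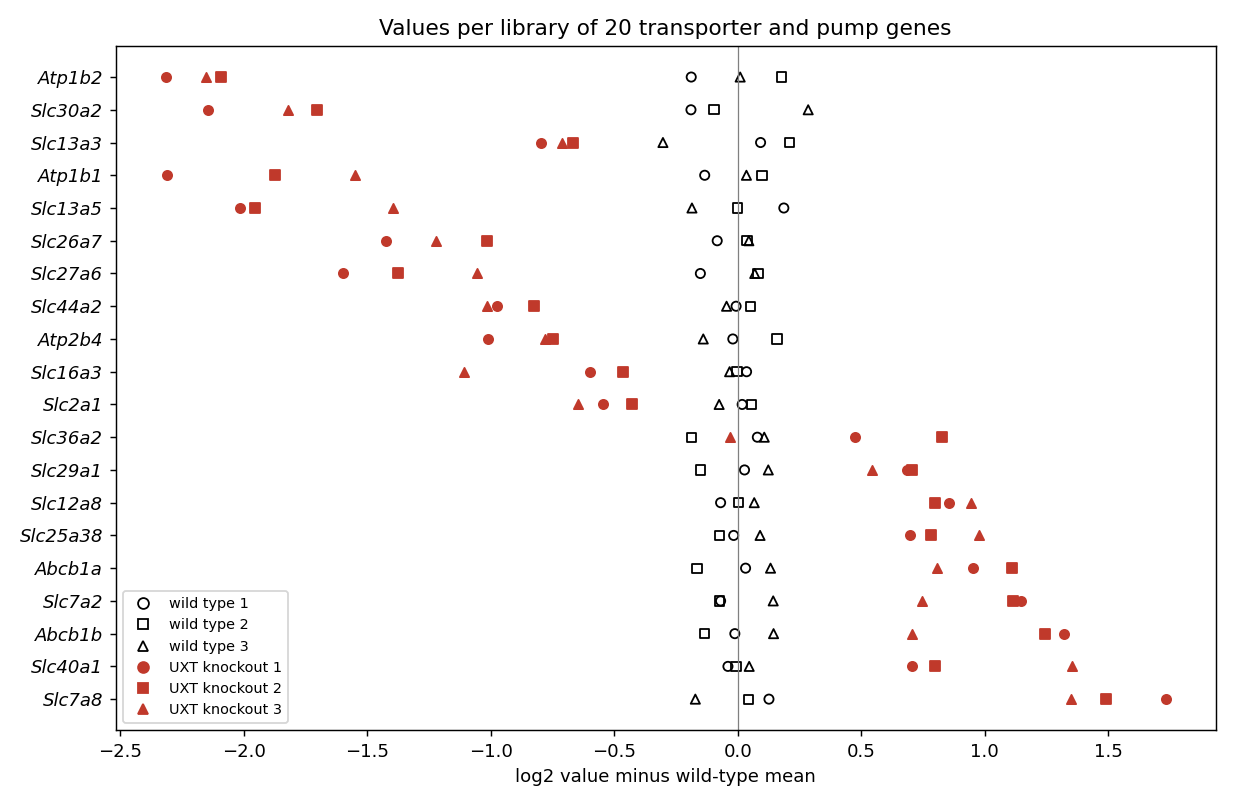
The log2 value in each library minus the wild-type mean of the gene (horizontal axis) for 20 genes (rows), open symbols for wild type and red symbols for UXT knockout, the shape giving the replicate number. The knockout symbols lie clear of the open ones in every row but Slc36a2, where knockout replicate 3 lies among them, and Atp1b2 lies farthest to the left.

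Among amino acid carriers both directions occurred, and the largest rise of all 86 genes was here. Slc7a8 encodes the light subunit of an exchanger of neutral amino acids. Slc7a8 (gene ID 50934, chromosome 14, 54722215 to 54781886) stood at 11.66, 11.58 and 11.37 in wild-type and at 13.27, 13.03 and 12.89 in knockout libraries. The groups were more than 1 log2 unit apart. It rose 4.98-fold per the authors' deposited table (limma difference 1.52 ± 0.12 SE, adjusted p = 1.03e-05). Slc7a2, a carrier of arginine and other cationic amino acids, went from 11.37, 11.37 and 11.58 to 12.59, 12.55 and 12.19 and rose 2.90-fold per the authors' deposited table (limma adjusted p = 9.42e-05). Its relative Slc7a3, also a cationic carrier, fell 2.54-fold per the authors' deposited table, from 7.73, 7.50 and 7.45 to 6.88, 7.02 and 7.05. Slc7a5, the light subunit closest in function to Slc7a8, moved the other way from it, from 13.37, 13.40 and 13.41 to 12.82, 13.10 and 13.03, a fall of 1.53-fold per the authors' deposited table (limma adjusted p = 0.00177). After quantile normalization neither Slc7a3 (limma adjusted p = 0.217) nor Slc7a5 (limma adjusted p = 0.111) was called, while Slc7a8 and Slc7a2 were. Slc3a2, the heavy subunit that both exchangers share, was not among the 86. The fifth Slc7 name, Slc7a6os, is named for its place opposite Slc7a6 and is no transporter. It rose 1.55-fold per the authors' deposited table.

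The stretch before the start of Slc7a8, the gene with the largest rise, lies on the minus strand at chr14:54781947-54782136 (RefSeq, GRCm38.p6), 190 bases after bases nearest the start were left out as exonic, and holds 1 GC box, in capitals:
Slc7a8: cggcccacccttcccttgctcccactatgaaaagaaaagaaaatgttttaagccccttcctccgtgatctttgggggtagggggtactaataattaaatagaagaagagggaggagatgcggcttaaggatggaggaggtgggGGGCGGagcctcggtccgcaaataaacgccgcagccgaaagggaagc

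Of the 14 genes in families grouped here as amino acid carriers, 9 fell (beside 67.5% of all genes), 4 rose and 1 was not called. The grouping is by family name, so it includes Slc7a6os, which rose, and Slc43a3 and Slc6a4, which fell. After quantile normalization 4 of the 14 were lower (beside 35.1%) and 5 higher (beside 32.2%), with no change of sign. Slc36a1, a proton-coupled carrier of small amino acids in lysosomes, rose 1.97-fold per the authors' deposited table. Its neighbour Slc36a2, 19223 bases away on chromosome 11, was the one gene of the 86 not called (limma difference 0.42 ± 0.19 SE, adjusted p = 0.0535). It was called higher after quantile normalization (limma difference 0.63, adjusted p = 0.0147) and after median centring (0.72, adjusted p = 0.00757). Its knockout values were 10.26, 10.61 and 9.75, and the last lay within the wild-type range of 9.60 to 9.89. Without knockout replicate 3 the limma adjusted p of Slc36a2 was 0.0026. Slc1a3 and Slc1a6 are glutamate transporters, and Slc1a3 is known from glia. They fell 2.24-fold and 2.20-fold per the authors' deposited table, and Slc1a3, whose wild-type values were the most spread of all 86 (8.45, 8.12 and 8.71), was not called after quantile normalization. Slc38a1, a glutamine carrier, and Slc43a3, known for carrying purine bases, fell 2.08-fold and 2.01-fold per the authors' deposited table. The low-level genes Slc6a4, the serotonin transporter, and Slc6a14 fell 3.22-fold and 2.98-fold per the authors' deposited table, but their differences of -0.31 each were not called after quantile normalization.

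**Figure D3:**
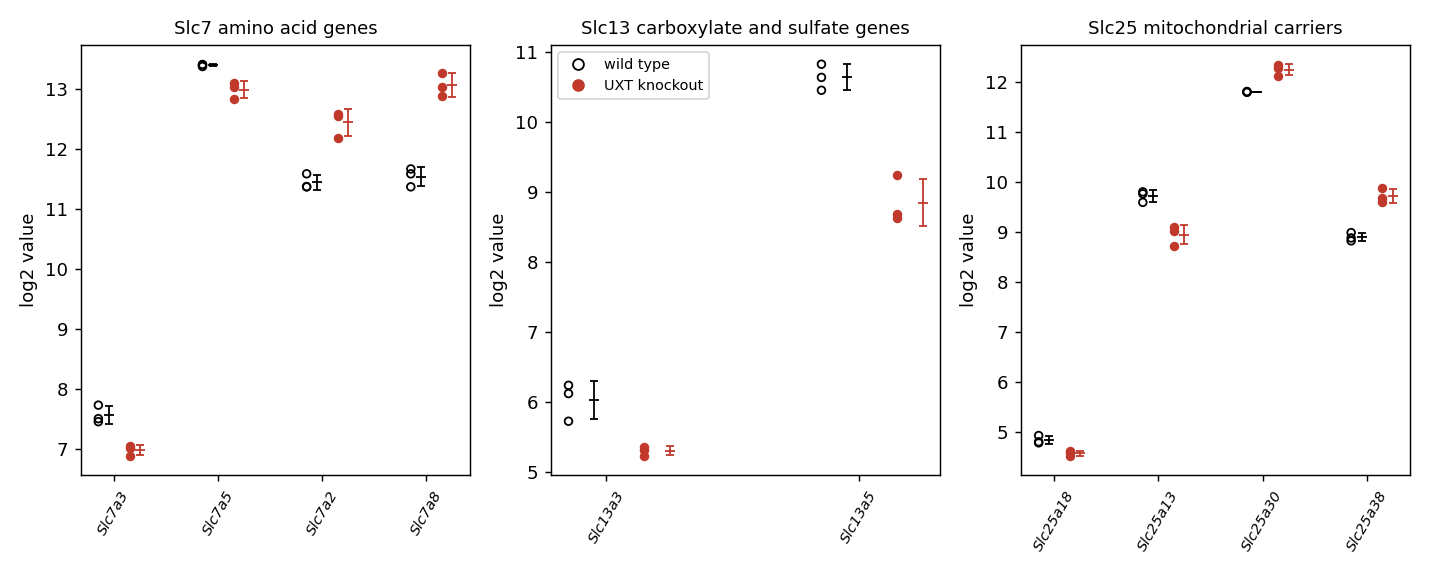
Log2 values per library (circles) with mean and SD (n = 3) for 10 Slc7, Slc13 and Slc25 genes, black for wild type and red for UXT knockout, each family ordered by deposited fold. Slc7a8 and Slc7a2 rise while Slc7a5 and Slc7a3 fall, Slc13a3 and Slc13a5 are lower, and Slc25a30 and Slc25a38 are higher while Slc25a13 and Slc25a18 are lower.

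Of 17 genes in families grouped here as sugar and carboxylate carriers, 14 fell, beside 67.5% of all genes, and 3 rose. This grouping too is by family name, and it includes the sulfate carrier Slc13a4, which fell, and Slc5a3 and Slc5a6, which rose. Quantile normalization left 8 lower (beside 35.1%) and 3 higher (beside 32.2%), and turned the sign of Slc2a2, Slc2a12, Slc16a7 and Slc37a1. Median centring left 7 lower (beside 31.4%) and 3 higher (beside 34.3%), and turned that of Slc13a2 and Slc2a12. The Slc13 family imports citrate, succinate and sulfate with sodium. Of its 5 annotated genes 4 were in the table and all were lower, beside 67.5% of all genes. Their median deposited log2 fold change was -1.99, beside -0.88 over all genes, although Slc13a2 was called under neither other scaling. Slc13a5, the citrate carrier (gene ID 237831, chromosome 11, 72241990 to 72267295), went from 10.83, 10.64 and 10.46 to 8.63, 8.69 and 9.24. It fell 5.47-fold per the authors' deposited table (limma difference -1.79 ± 0.17 SE, adjusted p = 2.70e-05). Slc13a3, the dicarboxylate carrier (gene ID 114644, chromosome 2, 165405295 to 165473197), went from 6.13, 6.24 and 5.73 to 5.24, 5.37 and 5.32. The deposited fall of Slc13a3 was larger, 6.53-fold, while its limma difference was smaller, at -0.72. Slc13a4, a sulfate carrier, went from 7.82, 8.25 and 7.71 to 5.94, 6.02 and 6.23. It fell 2.77-fold per the authors' deposited table, and its limma difference of -1.86 was 1.27 times the deposited log2 fold change. It was the one gene of the 86, and 1 of 6 in the whole table, in which the values per library differed by more than the deposited fold, so its fold is uncertain.

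Slc13a3 had the largest fall of this family, and the stretch before its start, on the minus strand at chr2:165473231-165473447 (RefSeq, GRCm38.p6), 217 bases after the same step, holds 1 core of the antioxidant response element (TGACNNNGC), 1 E-box (CACGTG) and 2 GC boxes, in capitals:
Slc13a3: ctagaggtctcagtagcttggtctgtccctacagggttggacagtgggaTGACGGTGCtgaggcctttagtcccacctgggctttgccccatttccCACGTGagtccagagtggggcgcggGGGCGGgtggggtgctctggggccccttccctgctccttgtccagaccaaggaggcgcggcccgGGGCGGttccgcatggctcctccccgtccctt

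The facilitative glucose carriers Slc2a1, Slc2a2, Slc2a3, Slc2a8 and Slc2a12 were 5 of 12 annotated Slc2 genes and all fell (beside 67.5% of all genes). After quantile normalization 3 were still called lower (beside 35.1%), and after median centring 2, Slc2a1 and Slc2a3 (beside 31.4%). Slc2a1, the main basal glucose carrier of many cells, went from 14.45, 14.49 and 14.35 to 13.88, 14.00 and 13.78 and fell 1.76-fold per the authors' deposited table (limma adjusted p = 4.42e-04). Slc2a3, a carrier of high affinity, fell 1.84-fold and Slc2a8, a carrier of internal membranes, 1.61-fold per the authors' deposited table. Slc2a2 and Slc2a12, at low values, fell 2.35-fold and 1.94-fold per the authors' deposited table, with differences of 0.05 and 0.11 after quantile normalization. Per kb of the longest coding transcript, the wild-type log2 level of Slc2a1 was 12.7, above Slc2a3 at 9.11 and Slc2a8 at 8.98. Txnip, which encodes a protein that restrains glucose uptake, fell 2.66-fold per the authors' deposited table.

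Lactate and other monocarboxylates leave cells through the Slc16 family. Slc16a3, the carrier known for lactate export, stood at 14.44, 14.40 and 14.37 in wild-type and at 13.81, 13.94 and 13.30 in knockout libraries. Knockout replicate 3 was the lowest, and the groups did not overlap. It fell 2.02-fold per the authors' deposited table (limma difference -0.72 ± 0.15 SE, adjusted p = 0.00155) and was called lower under both other scalings. Slc16a7 and Slc16a4 fell 1.86-fold and 2.28-fold per the authors' deposited table, neither called under the other scalings. Slc16a11 rose 3.48-fold per the authors' deposited table, from 3.35, 3.34 and 3.33 to 3.57, 3.55 and 3.46, a difference of 0.19 at the low end of the scale. Partners of these carriers moved in opposite directions. Bsg, which encodes basigin, the chaperone that brings lactate carriers to the membrane, fell by 0.67 on the log2 scale of the values per library, and Emb, which encodes the related embigin, rose 2.54-fold per the authors' deposited table. Slc5a3, an inositol carrier that protects cells from osmotic stress, and Slc5a6, a carrier of biotin and pantothenate, rose 2.02-fold and 2.30-fold per the authors' deposited table. Slc5a3 overlaps Mrps6 on the same strand, so its counts are uncertain. Slc45a4 and Slc37a1, with putative sugar substrates, fell 2.43-fold and 2.22-fold per the authors' deposited table.

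Of the 6 Slc25 genes in the table, of 47 annotated, 4 rose and 2 fell. The 4 that rose make 66.7% of the 6, beside 32.1% of all genes. After both other scalings 4 were called higher and 1 lower, with the sign of Slc25a18 turned by median centring. Of all genes, 32.2% were higher and 35.1% lower after quantile normalization, and 34.3% and 31.4% after median centring. Slc25a38, a glycine carrier needed for heme synthesis, went from 8.88, 8.82 and 8.98 to 9.59, 9.67 and 9.87 and rose 2.64-fold per the authors' deposited table (limma adjusted p = 1.11e-04). Slc25a30 and Slc25a47 rose 1.62-fold and 2.07-fold per the authors' deposited table. The groups of Slc25a47 overlapped, with knockout replicate 2 at 6.08 under wild-type replicate 1 at 6.17. Slc25a13, the aspartate and glutamate carrier of the malate-aspartate shuttle, fell from 9.76, 9.80 and 9.59 to 8.72, 9.01 and 9.09, by 2.44-fold per the authors' deposited table. Slc25a18, a glutamate carrier, fell 2.83-fold per the authors' deposited table at low values. Ucp2, a carrier of the same fold under another name, rose 1.69-fold per the authors' deposited table.

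Few metal carriers were in the table, and they included large changes. Slc30a2, a zinc exporter that fills vesicles (gene ID 230810, chromosome 4, 134343046 to 134354484), went from 10.02, 10.12 and 10.50 to 8.07, 8.51 and 8.40. It fell 8.61-fold per the authors' deposited table (limma difference -1.89 ± 0.15 SE, adjusted p = 1.31e-05), the second largest fall of the 86. Slc40a1, or ferroportin, the iron exporter (gene ID 53945, chromosome 1, 45908070 to 45926532), went from 8.31, 8.34 and 8.39 to 9.05, 9.15 and 9.70. Knockout replicate 3 was the highest, and all 3 lay above the wild-type libraries. It rose 3.26-fold per the authors' deposited table (limma difference 0.95 ± 0.16 SE, adjusted p = 5.19e-04). Cp, which encodes ceruloplasmin, the oxidase that works with ferroportin, fell 2.70-fold per the authors' deposited table. Slc11a1, a metal carrier of phagosomes known from macrophages, fell 2.87-fold per the authors' deposited table, from 8.56, 8.66 and 8.39 to 7.44, 7.84 and 7.86, and Slc15a3, a peptide and histidine carrier of lysosomes in immune cells, fell 2.87-fold. The macrophage markers, all 23 in the table lower, had a median fold of 5.85 per the authors' deposited table, and their summed level was 3.327e+04 to 4.259e+04 in wild type and 1.223e+04 to 1.440e+04 in knockout cells. Their part in these falls was not tested. None of the 14 annotated Slc39 zinc importers was in the table.

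Of the 11 carriers of inorganic ions 9 fell and 2 rose, beside 67.5% of all genes lower, against 4 lower (beside 35.1%) and 2 higher after quantile normalization and 5 lower (beside 31.4%) and 2 higher after median centring, with the sign of Slc12a5 turned by both. Slc26a7, an anion exchanger (gene ID 208890, chromosome 4, 14502430 to 14621946), went from 8.33, 8.45 and 8.45 to 6.98, 7.39 and 7.19. It fell 5.34-fold per the authors' deposited table (limma adjusted p = 3.35e-05). The sodium-proton exchangers Slc9a2 and Slc9a7 fell 4.34-fold and 2.59-fold per the authors' deposited table, the former not called after quantile normalization (limma adjusted p = 0.0502). Slc8a1, the sodium-calcium exchanger of the plasma membrane, fell 3.20-fold, and Slc8b1, its mitochondrial counterpart, 1.52-fold per the authors' deposited table. The potassium-dependent exchangers Slc24a5 and Slc24a3 fell 3.30-fold and 1.64-fold per the authors' deposited table. Within the cation-chloride family Slc12a8 rose 2.61-fold, from a mean of 10.05 ± 0.07 to 10.92 ± 0.07 (SD, n = 3), while Slc12a5 and Slc12a9 fell 2.01-fold and 1.63-fold per the authors' deposited table. Wnk3 and Wnk4 encode kinases that regulate these cotransporters, and they fell 2.36-fold and 1.71-fold per the authors' deposited table, the latter not called after quantile normalization. Slc34a2, a phosphate carrier, rose 2.36-fold per the authors' deposited table, a difference of 0.27 in the values per library.

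Carriers of organic ions, amines and nucleotides numbered 10, with 6 lower and 4 higher, beside 67.5% and 32.1% of all genes. After quantile normalization none was called lower and 4 were higher, beside 35.1% and 32.2% of all genes. The counts were the same after median centring, beside 31.4% and 34.3% of all genes. Each of these scalings turned the sign of 2 genes, Slc10a6 and Slc35f2 under the former and Slc28a2 and Slc35f2 under the latter. Slc29a1, the main equilibrative nucleoside carrier, rose from 11.63, 11.46 and 11.73 to 12.29, 12.31 and 12.15, by 1.98-fold per the authors' deposited table. Slc22a23, Slc35e2 and Slc35e4 rose 1.88-fold, 1.60-fold and 1.56-fold per the authors' deposited table. Slc18a1, a vesicular amine carrier, Slc28a2, a nucleoside carrier, Slc10a6, a carrier of steroid sulfates, Slc17a9, which loads vesicles with ATP, Slc22a17 and Slc35f2 fell between 1.82-fold and 3.81-fold per the authors' deposited table. Slc18a1 overlaps Atp6v1b2 on the opposite strand, and their reads can be told apart only where counting used strand.

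Among lipid and vitamin carriers Slc27a6, a fatty acid transport protein, fell from 10.25, 10.48 and 10.47 to 8.80, 9.03 and 9.35, by 4.33-fold per the authors' deposited table. Slc44a2, a choline carrier-like protein (gene ID 68682, chromosome 9, 21320719 to 21355028), was abundant and varied little. It stood at 14.39, 14.44 and 14.35 in wild-type and at 13.42, 13.57 and 13.38 in knockout libraries, a fall of 2.67-fold per the authors' deposited table (limma difference -0.94 ± 0.08 SE, adjusted p = 2.04e-05). Its relatives Slc44a1 and Slc44a3 fell 1.75-fold and 1.83-fold per the authors' deposited table, and the difference of Slc44a3 turned to 0.02 after quantile normalization. Slc19a1, the reduced folate carrier, rose 1.83-fold per the authors' deposited table. Stra6, which encodes the receptor that imports retinol, fell 6.82-fold and Mfsd2a, a carrier of lysophospholipids, 3.53-fold per the authors' deposited table.

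The ABC genes held the clearest pair. Abcb1a and Abcb1b encode the mouse forms of P-glycoprotein, which exports many drugs, and lie 49572 bases apart on chromosome 5. Abcb1a (gene ID 18671, 8567091 to 8748575) went from 9.91, 9.71 and 10.01 to 10.83, 10.99 and 10.68. Abcb1b (gene ID 18669, 8798147 to 8866314) went from 11.05, 10.93 and 11.21 to 12.39, 12.31 and 11.77. All knockout values of both genes lay above the wild-type values, with knockout replicate 3 the nearest in each. They rose 2.86-fold and 3.20-fold per the authors' deposited table (limma adjusted p = 7.30e-05 and 2.41e-04). Their open reading frames are 87.6% identical, the highest of the pairs compared within families, so reads could be split between them and their separate values are uncertain.

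The stretches before the starts of this pair that rose together, both on the plus strand (RefSeq, GRCm38.p6), lie at chr5:8566841-8567090 and chr5:8797897-8798146. The first holds none of the 8 motifs searched, and the second 1 GC box and 2 CCAAT boxes, in capitals:
Abcb1a: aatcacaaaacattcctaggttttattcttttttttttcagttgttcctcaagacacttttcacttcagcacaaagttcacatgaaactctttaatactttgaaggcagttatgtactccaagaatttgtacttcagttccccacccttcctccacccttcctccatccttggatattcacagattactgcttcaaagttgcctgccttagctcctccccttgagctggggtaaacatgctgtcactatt
Abcb1b: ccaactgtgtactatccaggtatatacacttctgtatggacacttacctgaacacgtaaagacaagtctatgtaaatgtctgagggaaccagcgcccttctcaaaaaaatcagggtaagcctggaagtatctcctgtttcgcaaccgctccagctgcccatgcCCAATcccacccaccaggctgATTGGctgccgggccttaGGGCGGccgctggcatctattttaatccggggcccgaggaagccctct

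Of the remaining ABC genes Abcc4, an exporter of organic anions and cyclic nucleotides, rose 1.58-fold per the authors' deposited table and 6 fell, so that 6 of 9 ABC genes were lower, beside 67.5% of all genes. After quantile normalization, which turned the sign of Abcg4, 1 ABC gene was lower (beside 35.1%) and 3 were higher, and after median centring 2 were lower (beside 31.4%) and 3 higher. Abcg1, which moves cholesterol to lipoproteins, fell from 8.52, 8.66 and 8.52 to 7.46, 7.64 and 7.75, by 3.60-fold per the authors' deposited table (limma adjusted p = 6.39e-05). Apoe, which encodes an acceptor of that cholesterol, fell 4.02-fold per the authors' deposited table. Abcc9, the sulfonylurea receptor that forms vascular potassium channels with the product of Kcnj8, fell 4.22-fold and Kcnj8 8.06-fold per the authors' deposited table. Abcc9 was not called after quantile normalization (limma adjusted p = 0.0648). Of the 13 myoid and smooth muscle markers that the table held, 12 fell, among them Mcam by 8.21-fold, and Cspg4, a marker of pericytes, rose 2.53-fold per the authors' deposited table. Their summed level, 5.482e+05 to 6.811e+05 in wild-type and 3.963e+05 to 4.573e+05 in knockout libraries, rests mostly on Acta2 and Tagln, at wild-type means of 18.4 and 17.6. The part of these cells in the falls of Abcc9 and Kcnj8 was not tested. Abca4, Abcg4, Abcc3 and Abcd4 fell between 1.51-fold and 2.90-fold per the authors' deposited table, none of them called under the other scalings.

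Other transport genes and partners were described from lists. Of 88 listed transport genes outside the name rule, the table held 16. Of these 7 rose and 9 fell, beside 32.1% higher and 67.5% lower of all genes. Their median deposited log2 fold change was -0.72, beside -0.88 over all genes. Besides Stra6, Aqp5, a water channel, fell 5.77-fold and Slco1a5, an organic anion carrier, 4.82-fold per the authors' deposited table. Of 66 listed partners and regulators, the table held 12, of which 1 rose (Emb) and 11 fell, beside the same shares of all genes. Their median was -1.28, beside the same -0.88. The largest of these falls were those of Kcnj8, Apoe and Fxyd1.

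Across the knockout libraries neither the 86 genes nor all genes varied evenly. Knockout replicate 2 lay nearest the wild-type mean in 42 genes (48.8%), replicate 3 in 35 (40.7%) and replicate 1 in 9 (10.5%), beside 48.9%, 31.7% and 19.3% of all genes. Replicate 1 lay farthest in Atp1b1 and Slc7a8, among others, and replicate 3 in Slc40a1 and Slc16a3.

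**Figure D4:**
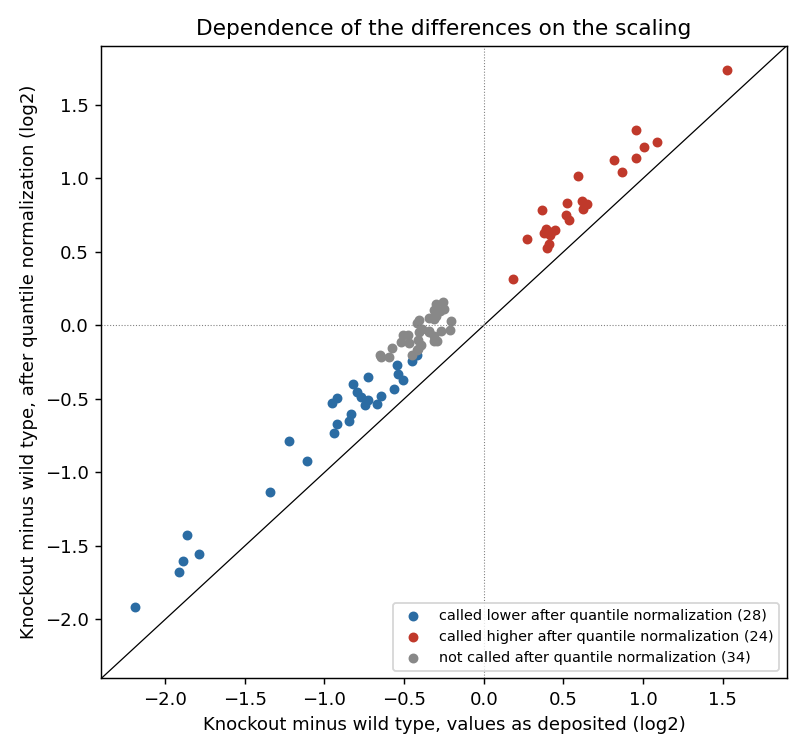
Limma difference, knockout minus wild type, with the values as deposited (horizontal) and after quantile normalization (vertical), 1 point per gene, coloured by the call after normalization; the line marks equal values. All 86 points lie above the line, and 34 genes, all of them lower as deposited, are not called after normalization.

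The promoter windows were searched for 8 motifs on both strands over the whole 250 bases before the most upstream start, exonic bases included. They were the antioxidant core (TGACNNNGC), the cAMP element (TGACGTCA), the amino acid element (TGATGNAA) and the E-box (CACGTG). The others were the GC box (GGGCGG), the CCAAT box (CCAAT), the TATA box (TATAAA) and a partial androgen response site (AGAACA). The letters AGAACA are only part of a full androgen response element, and full elements were not searched. The antioxidant core and the cAMP element share their first 4 letters. The GC box was in 9 of 19 promoters of genes that rose (47.4%) and in 23 of 41 of genes that fell (56.1%), beside 53.4% of the table's promoters and 33.0% of all promoters. The antioxidant core was in 4 of 19 (21.1%) and 1 of 41 (2.44%), beside 10.9% and 10.1%. The partial androgen response site was in 1 of 19 (5.26%) and 5 of 41 (12.2%), beside 11.2% and 16.1%. The TATA box was in none of the 19 and in 5 of 41 (12.2%), beside 9.28% of the table's promoters, and 13.0% of all. The E-box was in 3 of 19 (15.8%) and 4 of 41 (9.76%), beside 6.04% of all promoters, and the CCAAT box in 5 (26.3%) and 11 (26.8%), beside 34.5%. The cAMP and amino acid elements, in 1.60% and 3.53% of all promoters, were in none of the 60. A match is letters in a window and no measured binding.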

How the data were processed

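RNA was extracted from primary Sertoli cells, 3 libraries per group, and sequenced after a stranded kit for messenger RNA, per the labels' protocols. Per the submitters' processing notes, the tools include FastQC, STAR and DESeq2 and the build is mm10, with no version or role listed. For counter, annotation and strand, the sources used here give nothing. The values per library deposited by the authors are on a log2 scale, and so are the deposited log2 fold change and average. A score that the authors deposited is a signed fold, the ratio, or minus its inverse for lower genes. P-values, raw and adjusted, were deposited from the authors' test.

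Of 3261 rows, 4 were left out because 2 symbols stood on several rows. Genes were tested with limma 3.58.1 (R 4.3.3, mean-variance trend, no covariate, Benjamini-Hochberg over 3257 genes). The code was checked on simulated data in which most genes were unchanged and none was selected. That check therefore does not cover error rates in this selected table. The planned pseudocount for linear values was not needed. Lists of classes, markers and partners came from general knowledge, and the members and lists were chosen with earlier results of these data known. Genes were named by fixed rules (the 6 largest rises and 6 largest falls among genes with separate groups, the 3 largest folds and the highest value per class, fixed transporters, genes against their family, uncalled genes, and the 3 largest folds of each outside list), which gave 49 of the 86. Most of the other 37 were added after their values were seen, and 1 gene is not reported here. Gene positions and promoters are from RefSeq (GRCm38.p6), overlaps and transcripts from GENCODE. Alternatives were 2 scalings, a filter, no trend, a replicate block, each library left out and other thresholds.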

Additional observations from a re-analysis of the deposited data

How the results depend on the processing

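Leaving out the trend, the fold threshold or the genes of lowest mean value, an adjusted p under 0.01 and each library in turn kept all counts within 1.5 times. Quantile normalization gave 28 lower genes, 53.8% lower and a median difference of -0.066, and median centring gave 29, 54.7% and -0.11, against 62, 72.9% and -0.40. The filter on low values moved the median to -0.44, and the deposited log2 fold change gave -0.92. A deposited fold of at least 2 left 12 higher genes. Leaving out each library gave a median difference from -0.40 to -0.36. Signs turned in 12 of the 86 genes after quantile normalization and in 7 after median centring, which moves every difference alike. Of the 49 genes named by rule these were, after quantile normalization, Atp7b (0.037), Slc10a6 (0.044), Slc16a7 (0.145), Slc35f2 (0.158) and Slc44a3 (0.017), and after median centring Slc25a18 (0.029), Slc28a2 (0.001) and Slc35f2 (0.039). Both scalings bring a table of mostly lower genes nearer to an even balance by construction. Of the same 49 genes, Slc35f2 lost its call without wild-type replicate 3 or knockout replicate 2 and Slc16a7 without knockout replicate 1. The labels share replicate numbers but give no pairing, and same-numbered libraries had deviations correlated at 0.177, -0.073 and -0.004. With the replicate block 23 genes were higher and 62 lower, 72.9% lower, and no call of a named gene changed. No member stood on a marker list. Depth was unknown, so the precision of low values could not be set from counts.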
